A study of Mus musculus with 8 samples.

Results

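Lysosomal hydrolases and the membrane proteins of the lysosome were examined as a module of 46 genes, chosen by name, among the 20886 genes that the probes of these microarrays could be matched to. The 46 genes were cysteine cathepsins (9), other lysosomal proteases (4), glycosidases (9), lipid and phosphate hydrolases (5), membrane proteins (9), lipid transfer, activator and precursor proteins (4), subunits of the proton pump (5) and the transcription factor Tfeb. Of these, 45 had a probe, 55 probes in all, and 34 were measured on all 8 arrays, while no probe was matched to Cd68. The RNA came from 3T3-L1 (3T3L-1 in the sample labels), a mouse embryonic fibroblast line that can be driven to become adipocytes, and Raw264.7, a mouse macrophage line, each co-cultured with the other in transwells for 48 h. In a transwell the cell lines grow on either side of a porous membrane, so that secreted molecules pass between them. Per the methods there were separate set-ups, with different cell numbers, and the line profiled grew in the lower well while its partner was in the insert, so the set-up and the cell line cannot be told apart. Each line had 1 array of untreated co-culture, 1 labelled cortisol (100 µM), 1 labelled serotonin (100 µM) and 1 labelled cortisol-serotonin (100 µM of each), so no condition had a replicate array and no culture of a cell line grown alone was among the samples. Both are established lines, and all arrays come from co-cultures, the untreated ones included. Whether the labels cortisol and serotonin were exchanged is not settled for this series, so the arrays are named by their labels throughout.

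The sample RNA was labelled with the red dye Cy5 and a common reference RNA with the green dye Cy3. The values below are log2 ratios of Cy5 over Cy3, which compare the level of a gene in the cells with its level in the reference, or differences between 2 such ratios, in which the reference cancels. The labels describe the reference as an equal mix of the RNA of all samples, whereas the methods describe it as pooled material of untreated cells of both lines grown alone. Median Cy5 signals were 51 to 103 units over backgrounds of 26.5 to 28, between 42.1% and 45.7% of probes were above background in both dyes, and no spot was saturated. The arrays of 3T3-L1 were on 1 slide and those of Raw264.7 on another, so slide and cell line cannot be told apart, nor can treatment and position on a slide, which was the same for both lines. The labelled cell lines carried their own markers. All 13 macrophage markers measured were higher in Raw264.7, led by Lcp1 (log2 difference 6.48), which encodes the actin bundler plastin of leukocytes, and all 11 fibroblast markers measured were higher in 3T3-L1, led by fibronectin Fn1 (log2 difference -9.31).

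Lysosomes are acidic organelles in which proteases, glycosidases, lipases and phosphatases break down material taken up by endocytosis, phagocytosis or autophagy. A proton pump, the V-ATPase, keeps the lumen acidic, and heavily glycosylated membrane proteins line the organelle and export its products. Macrophages are rich in lysosomes, which degrade engulfed particles and process antigens. Many lysosomal genes share a short palindromic element, an E-box, near their start site, to which Tfeb and its relatives bind.

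The sequence around the start site was available for 38 of the 46 genes in a RefSeq table of build GRCm38.p6 that covers 27025 genes, in windows of 300 bases that run from 250 before each start to 50 past it. All motif counts are over these windows. The hexamer CACGTG, read on both strands, which are alike for a palindrome, occurred in 13 of the 38 (34.2%) and in 8.09% of all genes in the table. Its longer form TCACGTGA, which contains it, occurred in 6 of the 38 (15.8%), namely Ctsa, Ctsd, Gla, Mcoln1, Atp6v0d1 and Atp6v1a, and in 1.12% of all genes. The 250 bases before the start are shown for Mcoln1, which differed between the cell lines, and for Ctsd, which did not pass that test, and the others are shown as 30 bases around the longer form, or 62 for Gla. Ctsa and Gla hold the longer form at 2 places, in Ctsa on either side of the start site. Capitals mark CACGTG in the windows of Mcoln1 (chr8:3500269-3500518, plus strand) and Ctsd (chr7:142387828-142388077, minus strand), and TCACGTGA in those of Ctsa (chr2:164833757-164833786, plus strand), Gla (chrX:134601183-134601244, minus strand), Atp6v0d1 (chr8:105566050-105566079, minus strand) and Atp6v1a (chr16:44139373-44139402, minus strand). A match is a description of the letters and does not show binding.
Mcoln1: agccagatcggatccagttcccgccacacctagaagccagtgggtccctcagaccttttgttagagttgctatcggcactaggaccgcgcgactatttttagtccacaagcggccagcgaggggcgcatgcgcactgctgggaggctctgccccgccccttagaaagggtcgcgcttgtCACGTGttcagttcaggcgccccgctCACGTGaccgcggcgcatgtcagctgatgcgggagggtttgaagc
Ctsd: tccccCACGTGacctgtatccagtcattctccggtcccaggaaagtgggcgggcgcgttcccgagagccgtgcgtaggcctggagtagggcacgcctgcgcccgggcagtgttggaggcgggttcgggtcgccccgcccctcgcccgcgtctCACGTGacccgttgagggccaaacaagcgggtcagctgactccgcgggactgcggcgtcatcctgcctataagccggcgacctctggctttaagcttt
Ctsa: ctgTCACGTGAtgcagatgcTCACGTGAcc
Gla: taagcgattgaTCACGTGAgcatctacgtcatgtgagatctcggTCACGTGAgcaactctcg
Atp6v0d1: ccctactgcggTCACGTGAgacgcggtgcg
Atp6v1a: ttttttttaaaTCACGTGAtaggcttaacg

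The first comparison asked how the lysosomal genes differ between the co-cultured cell lines. A few hydrolases and 1 membrane protein were far higher in the macrophages, led by cathepsin S, while most of the other lysosomal genes were higher in 3T3-L1 or did not pass the test. Of the 34 genes measured on all 8 arrays, 9 were higher in Raw264.7 and 17 were higher in 3T3-L1 at an adjusted p under 0.05 (limma, cell line and treatment as terms, Benjamini-Hochberg over 10995 genes), and 8 did not pass. Among all genes tested, 36.3% were higher in Raw264.7 and 38.0% were higher in 3T3-L1 by the same rule, 74.3% in either direction. The lysosomal genes thus made up 26.5% against 36.3% on the macrophage side and 50% against 38.0% on the 3T3-L1 side. Their median log2 difference, Raw264.7 minus 3T3-L1, was -0.43, and that of all genes was -0.04. With each array centred on its median in place of loess, 10 were called higher in 3T3-L1 (17.8% of all genes) and 8 higher in Raw264.7 (27.6%), and Ctsa, Gla, Man2b1, Asah1, Acp2, Mcoln1, Npc2 and Atp6v1h lost their calls. The 4 arrays of a line carried different treatments, so the spread within a line includes that of the treatments.

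Differences of at least 2-fold that passed the test were found in 6 genes toward Raw264.7 and 9 toward 3T3-L1, where 15.9% of all genes were found on either side. The arrays of the lines did not overlap for 25 of the 34 genes: for 8 the Raw264.7 arrays were all above (34.8% of all genes) and for 17 the 3T3-L1 arrays were all above (35.5%).

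**Figure D1:**
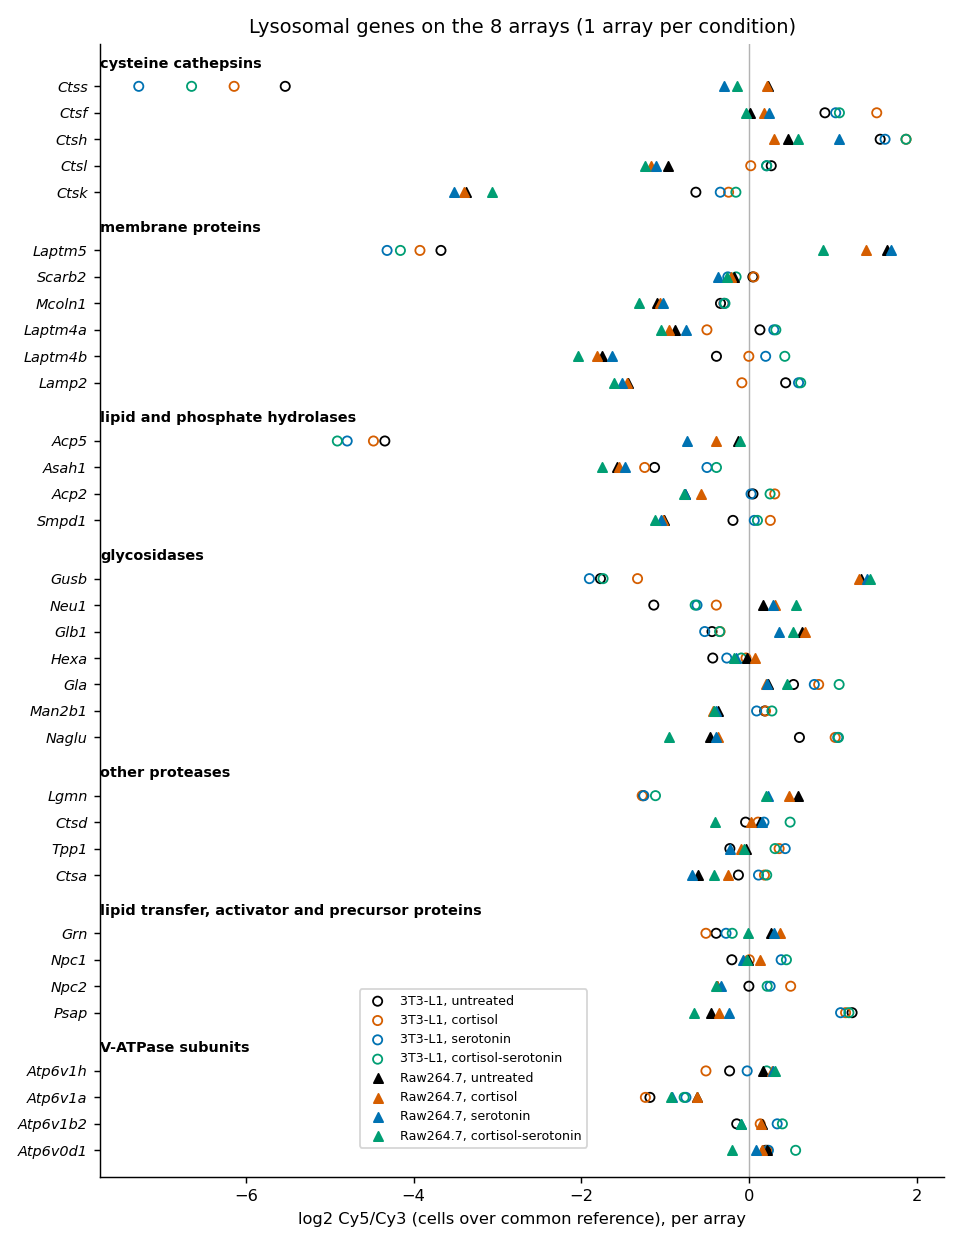
Log2 ratio of Cy5 (cells) over Cy3 (common reference) on each of the 8 arrays for the 34 lysosomal genes measured on all of them, by role; open circles are 3T3-L1 arrays, filled triangles Raw264.7 arrays, and colours are treatments. The arrays of the lines are farthest apart for Ctss, Laptm5 and Acp5, which are low in 3T3-L1, and for Ctsk, which is low in Raw264.7.

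The cysteine cathepsins, papain-like proteases of the lysosome, held the largest differences in both directions among the genes measured on all arrays. Cathepsin S (Ctss), which trims the invariant chain of MHC class II in antigen-presenting cells, had log2 ratios of 0.23 on the untreated array, 0.21 on that labelled cortisol, -0.30 on that labelled serotonin and -0.15 on that labelled cortisol-serotonin in Raw264.7. In 3T3-L1 the corresponding ratios were -5.53, -6.14, -7.28 and -6.65. All arrays of Raw264.7 were above all arrays of 3T3-L1, and the difference was 84.3-fold (log2 6.40 ± 0.17 SE, limma adjusted p = 3.46e-10). The Cy5 signal of Ctss in 3T3-L1 was 87 to 167 units, above background on all 4 arrays but near it, against 7926 to 11677 in Raw264.7.

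Cathepsin K (Ctsk), a collagen-degrading protease known from osteoclasts and fibroblasts, ran the other way. Its log2 ratios in 3T3-L1 were -0.64 untreated, -0.25 labelled cortisol, -0.34 labelled serotonin and -0.16 labelled cortisol-serotonin, and in Raw264.7 they were -3.38, -3.40, -3.52 and -3.07. The lines did not overlap, and Ctsk was 7.98-fold higher in 3T3-L1 (95% confidence interval of the log2 difference -3.25 to -2.74, limma adjusted p = 4.23e-09). The genes Ctsk and Ctss lie next to each other on chromosome 3 with 0 protein-coding genes between them in the RefSeq table. Their windows, from position -240 to the first transcribed bases, are shown for this contrast (Ctss chr3:95526546-95526795 and Ctsk chr3:95498970-95499219, both plus strand, GRCm38.p6). The octamer GAGGAAGT, a form of the purine-rich element known for the myeloid factor PU.1, was searched on both strands. It was found in the windows of Ctss, Ctsc, Gusb and Gla, 4 of 38 genes, and in 3.69% of all genes, and in Ctss it lies on the opposite strand across the start site, in capitals. No full match was found in the window of Ctsk, but the octamer without its last base occurs there on each strand. Among the genes with the octamer, Ctss (log2 difference 6.40) and Gusb (3.06) were higher in Raw264.7 and Gla (-0.53) was higher in 3T3-L1. Ctsc was not measured on all arrays. Whether the octamer has a part in the difference between Ctss and Ctsk was not tested.
Ctss: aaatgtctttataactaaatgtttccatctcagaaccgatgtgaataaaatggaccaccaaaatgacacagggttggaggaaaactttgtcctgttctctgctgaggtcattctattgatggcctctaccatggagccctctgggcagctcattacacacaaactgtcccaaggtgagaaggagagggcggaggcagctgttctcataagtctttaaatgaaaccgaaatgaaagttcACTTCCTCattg
Ctsk: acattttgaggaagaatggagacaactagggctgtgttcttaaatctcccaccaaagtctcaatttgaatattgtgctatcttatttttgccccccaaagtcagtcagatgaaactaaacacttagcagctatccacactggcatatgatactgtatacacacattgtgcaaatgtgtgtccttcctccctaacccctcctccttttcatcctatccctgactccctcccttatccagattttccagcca

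Cathepsins L, H and F were higher in 3T3-L1 without overlap. Cathepsin L (Ctsl), a broadly expressed endopeptidase, had log2 ratios of 0.26, 0.02, 0.21 and 0.21 in 3T3-L1 (untreated, cortisol, serotonin and cortisol-serotonin by label, the order kept below) and of -0.96, -1.17, -1.11 and -1.24 in Raw264.7, and was 2.45-fold higher in 3T3-L1 (limma adjusted p = 1.31e-06). Cathepsin H (Ctsh), an aminopeptidase, had ratios of 1.56, 1.87, 1.62 and 1.87 in 3T3-L1 and of 0.46, 0.30, 1.08 and 0.59 in Raw264.7, and was 2.18-fold higher in 3T3-L1 (limma adjusted p = 7.69e-05). The macrophage array labelled serotonin stood above the other macrophage arrays for Ctsh. Cathepsin F (Ctsf) was 2.05-fold higher in 3T3-L1 (limma adjusted p = 2.17e-05).

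The other 4 cathepsin genes did not have a value on every array. For Ctsc, which activates serine proteases of immune cells, the 4 Raw264.7 arrays had ratios between 2.36 and 2.60 and the 3T3-L1 arrays between -1.30 and -1.17, but the Cy5 signal on the untreated 3T3-L1 array (65 units) was not well above background. With no filter on dim probes the ratios differed 13.0-fold toward Raw264.7 (limma adjusted p = 5.17e-08), from Cy5 signals of 65 to 99 units in 3T3-L1, of which 3 of 4 were well above background, against 833.5 to 1353 in Raw264.7. The scanner software had marked a spot of Ctsb and of Ctsz as an outlier on 1 array of 3T3-L1. With such spots kept, a setting added after seeing the data, Ctsz, a carboxypeptidase, was 3.85-fold higher in Raw264.7 (limma adjusted p = 1.12e-07), and Ctsb, among the most widely expressed cathepsins, had a log2 difference of 0.11 (limma adjusted p = 0.435). Ctso was above background on 3 of 4 arrays of 3T3-L1, with Cy5 signals of 157 units labelled serotonin and 60 to 72 on the other arrays, and on 0 of 4 of Raw264.7 (45 to 63 units). With no filter on dim probes its log2 difference was -0.21 (limma adjusted p = 0.135), so no difference of Ctso between the lines was detectable.

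Among the other proteases, legumain (Lgmn), which cleaves after asparagine and activates cathepsins, had ratios of 0.58, 0.48, 0.23 and 0.20 in Raw264.7 and of -1.26, -1.28, -1.26 and -1.12 in 3T3-L1. It was 3.03-fold higher in Raw264.7, with no overlap (limma adjusted p = 7.30e-07). The aspartic protease cathepsin D (Ctsd) had a log2 difference of -0.21 with a 95% confidence interval of -0.57 to 0.16, and the tripeptidyl peptidase Tpp1 one of -0.32 (interval -0.64 to -0.01, limma adjusted p = 0.062). Neither passed, and for both the arrays of the lines overlapped. Without the untreated array of 3T3-L1 the difference of Tpp1 was -0.49 (limma adjusted p = 0.00723). That of Ctsd was then -0.48 (limma adjusted p = 0.0083), but its other probe, marked only on the array left out, had entered the mean. Without the 3T3-L1 array labelled cortisol-serotonin the difference of Ctsd was 0.022. The other probe of Ctsd, far brighter and marked as an outlier on the untreated array of 3T3-L1, had a log2 difference of -0.61, and with its marked spot kept the mean of both probes was -0.39 and passed (limma adjusted p = 0.0109). The protective protein Ctsa was higher in 3T3-L1 by 1 probe (log2 difference -0.58, limma adjusted p = 0.000698). Its other probe, far brighter and marked as an outlier on 1 array of 3T3-L1, had a log2 difference of 0.09, and with its marked spot kept the mean of both probes was -0.23 (limma adjusted p = 0.0582). The marked spot was on the 3T3-L1 array labelled cortisol-serotonin. Without that array this probe entered the mean as well, and Ctsa was not called (log2 -0.21, limma adjusted p = 0.168).

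The glycosidases, which remove sugars from glycoproteins, glycolipids and matrix glycans, were split, with 3 higher in Raw264.7, 3 higher in 3T3-L1 and 1 not called. Beta-glucuronidase (Gusb) had ratios of 1.34, 1.31, 1.41 and 1.44 in Raw264.7 and of -1.77, -1.33, -1.90 and -1.74 in 3T3-L1. The groups were far apart, and Gusb was 8.35-fold higher in the macrophages (log2 3.06 ± 0.13 SE, limma adjusted p = 8.19e-09). The sialidase Neu1 had ratios of 0.17, 0.30, 0.29 and 0.56 in Raw264.7 and of -1.14, -0.39, -0.62 and -0.64 in 3T3-L1, and was 2.04-fold higher in Raw264.7 (limma adjusted p = 3.14e-05). The Neu1 spot on the macrophage array labelled cortisol-serotonin was weak in both dyes, with 844 Cy5 units against 15694 to 25346 on the other macrophage arrays, and from Cy5 alone the line difference was 0.07 (limma adjusted p = 0.942). The beta-galactosidase Glb1, which forms a complex with Neu1 and Ctsa, was 1.95-fold higher in Raw264.7 (limma adjusted p = 1.20e-05).

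On the other side, Naglu, an enzyme of heparan sulphate breakdown, had ratios of 0.60, 1.03, 1.06 and 1.06 in 3T3-L1 and of -0.47, -0.38, -0.40 and -0.96 in Raw264.7, and was 2.80-fold higher in 3T3-L1 (limma adjusted p = 6.33e-06). The lysosomal alpha-mannosidase Man2b1 was 1.51-fold higher in 3T3-L1 (limma adjusted p = 0.000429). The alpha-galactosidase Gla was 1.45-fold higher there (limma adjusted p = 0.00121). Hexa, the alpha subunit of beta-hexosaminidase, had a log2 difference of 0.14 (interval -0.12 to 0.39) with overlapping arrays. The beta-mannosidase Manba and the acid alpha-glucosidase Gaa, which breaks down glycogen, each lost a spot to an outlier mark. On the unmarked arrays Manba had ratios of 1.24, 1.44 and 1.04 in Raw264.7 (untreated, cortisol, serotonin) and of -2.45 to -2.08 in 3T3-L1, and with marked spots kept it was 11.7-fold higher in Raw264.7 (limma adjusted p = 5.71e-10). The probes of Gaa disagreed in size. The brighter one had ratios of 0.96, 1.12 and 1.16 on 3 arrays of 3T3-L1 and of -3.50, -3.47, -3.21 and -2.43 in Raw264.7, a difference of 18.8-fold toward 3T3-L1. The dimmer one had a difference of 1.91-fold in the same direction.

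The lipid and phosphate hydrolases were higher in 3T3-L1 in 3 of 4 cases, and the exception was large. Tartrate-resistant acid phosphatase (Acp5), known from osteoclasts and macrophages, had ratios of -0.13, -0.40, -0.75 and -0.11 in Raw264.7 and of -4.34, -4.48, -4.79 and -4.91 in 3T3-L1. Its probes gave log2 differences of 4.45 and 4.12, and as their mean Acp5 was 19.5-fold higher in Raw264.7 (log2 4.28 ± 0.14 SE, limma adjusted p = 1.19e-09). Acid sphingomyelinase (Smpd1) was 2.16-fold higher in 3T3-L1 (limma adjusted p = 8.33e-06), the lysosomal acid phosphatase Acp2 1.84-fold (limma adjusted p = 2.52e-05) and acid ceramidase (Asah1) 1.71-fold (limma adjusted p = 0.00174). The probes of Asah1 gave log2 differences of -0.97 and -0.57. By the latter, dimmer probe the lines overlapped, with 3T3-L1 at -1.28, -1.54, -0.42 and -0.33 and Raw264.7 between -1.66 and -1.34. The other probe of Acp2, which was below background in the reference on 1 array, had a log2 difference of -0.03. Acid lipase (Lipa), which frees cholesterol and fatty acids from lipoprotein lipid, was 1.72-fold higher in Raw264.7 with outlier-marked spots kept (limma adjusted p = 7.12e-05).

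**Figure D2:**
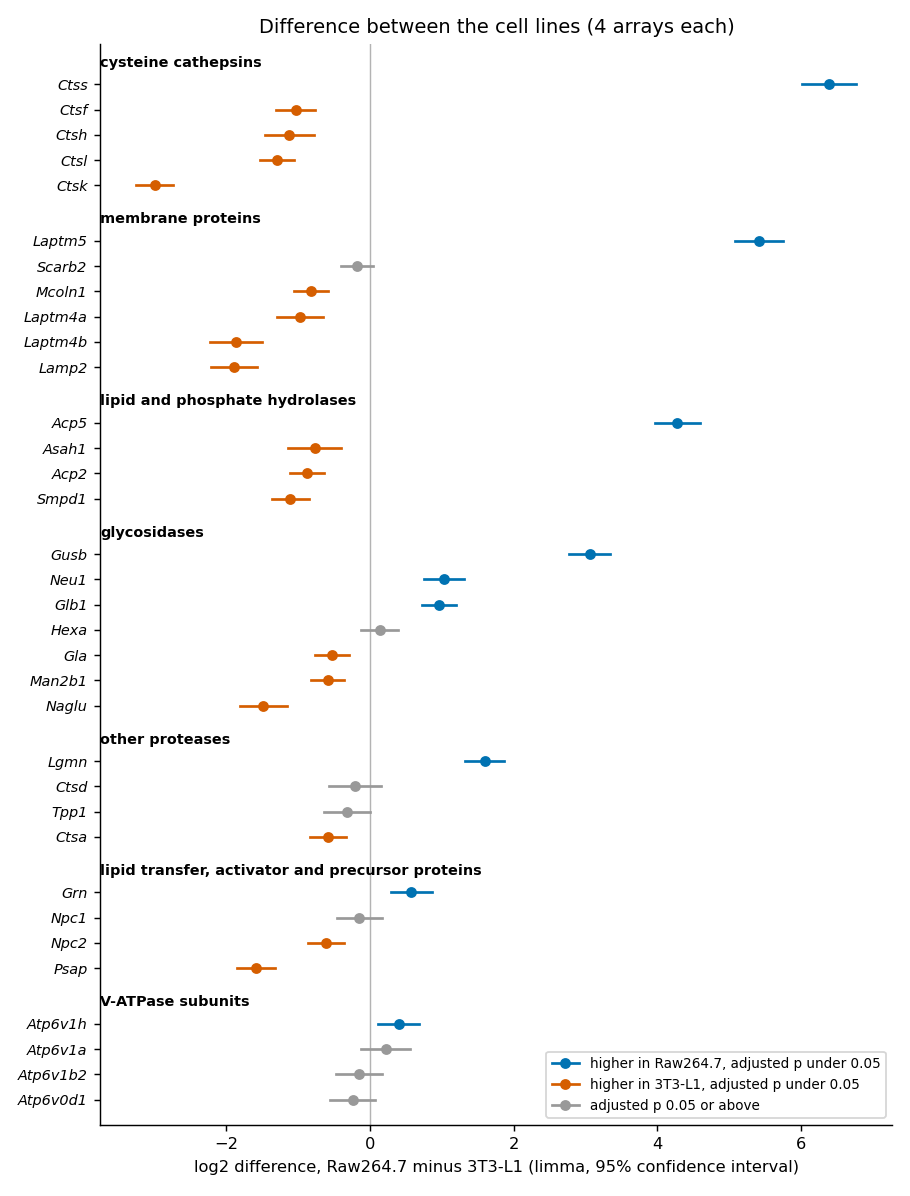
Log2 difference between the cell lines (Raw264.7 minus 3T3-L1) for the same 34 genes by role, with the limma estimate as a point and its 95% confidence interval as a bar over 4 arrays of each line; blue genes were higher in Raw264.7, orange genes higher in 3T3-L1 and grey genes had an adjusted p of 0.05 or above. Ctss, Laptm5, Acp5 and Gusb lie above 3 on the log2 scale, and 17 genes lie on the 3T3-L1 side.

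The membrane proteins divided by family member. Laptm5, a lysosomal transmembrane protein of blood cells, had ratios of 1.64, 1.39, 1.69 and 0.88 in Raw264.7 and of -3.67, -3.92, -4.32 and -4.16 in 3T3-L1. It was 42.7-fold higher in Raw264.7 (log2 5.42 ± 0.15 SE, limma adjusted p = 4.53e-10), and a second, partly marked probe gave a log2 difference of 3.86. The Cy5 signal of Laptm5 in 3T3-L1 was 140 to 156 units by the first probe and 99 to 159 by the second, above background but near it. Its relatives Laptm4a and Laptm4b, which are expressed in many tissues, were higher in 3T3-L1. Laptm4b had ratios of -0.39, 0.00, 0.20 and 0.42 in 3T3-L1 and of -1.75, -1.82, -1.63 and -2.04 in Raw264.7, a difference of 3.65-fold (limma adjusted p = 1.94e-06). Laptm4a was 1.96-fold higher in 3T3-L1 (limma adjusted p = 0.000131).

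Lamp2, a main structural glycoprotein of the lysosomal membrane, had ratios of 0.43, -0.09, 0.59 and 0.61 in 3T3-L1 and of -1.44, -1.45, -1.52 and -1.62 in Raw264.7. It was 3.72-fold higher in 3T3-L1 (log2 difference -1.90 ± 0.14 SE, limma adjusted p = 8.26e-07), and its probes, which match different transcripts, gave log2 differences of -2.38 and -1.41. The calcium channel Mcoln1, whose window is printed above, kept within -0.34 to -0.29 in 3T3-L1 and within -1.31 to -1.03 in Raw264.7, a difference of 1.76-fold (limma adjusted p = 5.10e-05). Scarb2, which carries glucocerebrosidase to the lysosome, had a log2 difference of -0.18 (interval -0.41 to 0.05). Lamp1 and the tetraspanin Cd63 had outlier marks in 3T3-L1, Cd63 on all 4 arrays, and with those spots kept Lamp1 was 1.79-fold (limma adjusted p = 4.32e-05) and Cd63 2.42-fold higher in 3T3-L1 (limma adjusted p = 1.54e-06).

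Prosaposin (Psap), the precursor of the saposins that help sphingolipid hydrolases, had ratios of 1.23, 1.15, 1.09 and 1.19 in 3T3-L1 and of -0.45, -0.36, -0.24 and -0.65 in Raw264.7. The arrays were well apart, and Psap was 3.01-fold higher in 3T3-L1 (limma adjusted p = 6.41e-07). Progranulin (Grn), which travels to lysosomes with prosaposin, was 1.49-fold higher in Raw264.7 (limma adjusted p = 0.00215). The cholesterol exporters differed in their calls, since Npc2 was 1.53-fold higher in 3T3-L1 (limma adjusted p = 0.000684) and Npc1 had a log2 difference of -0.15 (interval -0.46 to 0.16).

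The V-ATPase subunits showed small differences. Atp6v1h, a regulatory subunit, was 1.32-fold higher in Raw264.7 (limma adjusted p = 0.0162) with overlapping arrays, and without the 3T3-L1 array labelled cortisol it no longer passed (limma adjusted p = 0.0733). The catalytic subunit Atp6v1a had a log2 difference of 0.22 (interval -0.13 to 0.56), Atp6v1b2 one of -0.15 (interval -0.47 to 0.17) and Atp6v0d1 one of -0.24 (interval -0.55 to 0.07), and none of the 3 passed. Atp6v0d2, the isoform known from osteoclasts and some macrophages, was above background only in Raw264.7. By its brighter probe it was at least 4.35-fold higher in Raw264.7, with Cy5 signals of 370, 189 and 361 units on 3 unmarked arrays and of 46.5 to 57 units in 3T3-L1, and by its dimmer probe at least 1.14-fold higher, from 2 of 4 arrays above background. These bounds set the brighter line's Cy5 mean against the higher of the dim probe's own signal and the lowest signal well above background on each array. Tfeb had Cy5 signals of 126, 76.5, 119 and 119 units in Raw264.7 and of 48 to 67 units, not well above background, in 3T3-L1, and was at least 1.64-fold higher in Raw264.7.

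Of the 13 genes with CACGTG in their window, 11 were measured on all arrays, of which 2 (Lgmn and Glb1) were higher in Raw264.7, 6 were higher in 3T3-L1 and 3 did not pass. Higher in Raw264.7 were 26.5% of the module and 36.3% of all genes, and higher in 3T3-L1 were 50% and 38.0%. Of the 6 genes with TCACGTGA, none was higher in Raw264.7 by the test, and Atp6v1a, which did not pass, was the highest at 0.22.

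Lysosomal genes outside the module were read from further lists. The counts of these lists and of those in the next paragraph stand beside 36.3% of all genes higher in Raw264.7 and 38.0% higher in 3T3-L1. Of 24 other hydrolases measured, 7 were higher in Raw264.7 and 10 in 3T3-L1 (median log2 difference -0.22), with lysozyme Lyz2, whose near copy Lyz1 may share its signal, at a log2 difference of 3.45 and palmitoyl-protein thioesterase Ppt1 3.82-fold higher in Raw264.7, and iduronate sulphatase Ids 6.78-fold and arylsulphatase A (Arsa) 5.45-fold higher in 3T3-L1. Of 20 other membrane and accessory proteins, 5 were higher in Raw264.7 and 8 in 3T3-L1 (median -0.18), led by the metal transporter Slc11a1 of phagocytes (16.5-fold toward Raw264.7) and by Cd164 (3.91-fold toward 3T3-L1). In both lists, as in the module, single genes of myeloid cells lay far on the macrophage side of a median that was below 0.

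Of 13 genes of enzyme sorting, 4 were higher in Raw264.7 and 3 in 3T3-L1. The subunits of the phosphotransferase that marks enzymes with mannose 6-phosphate lay on opposite sides, Gnptab 2.23-fold higher in Raw264.7 and Gnptg 3.49-fold higher in 3T3-L1. Of 10 other V-ATPase subunits, 2 were higher in Raw264.7 and 4 in 3T3-L1, with Atp6v0a1 2.35-fold higher in 3T3-L1. Of 15 genes of the Tfeb family and of lysosomal nutrient sensing, 2 were higher in Raw264.7 and 7 in 3T3-L1. Mitf, a relative of Tfeb that acts in osteoclasts and macrophages, was 4.43-fold higher in Raw264.7, and Fnip1 was 2.75-fold higher in 3T3-L1. Of 18 autophagy genes, 14 were higher in 3T3-L1 (38.0% of all genes) and 1, Uvrag, was higher in Raw264.7 (36.3% of all genes). Their median was -0.96, with Wipi1 8.74-fold and Map1lc3a 5.91-fold higher in 3T3-L1. Of 4 cathepsin inhibitors measured, cystatin C (Cst3) was 2.12-fold and Serpinb6b 7.96-fold higher in Raw264.7 and Serpinb1a 3.34-fold higher in 3T3-L1, while cystatin B (Cstb) had a log2 difference of -0.24 (limma adjusted p = 0.128). Of 8 reference genes, 2 were higher in either line and the median was 0.02.

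**Figure D3:**
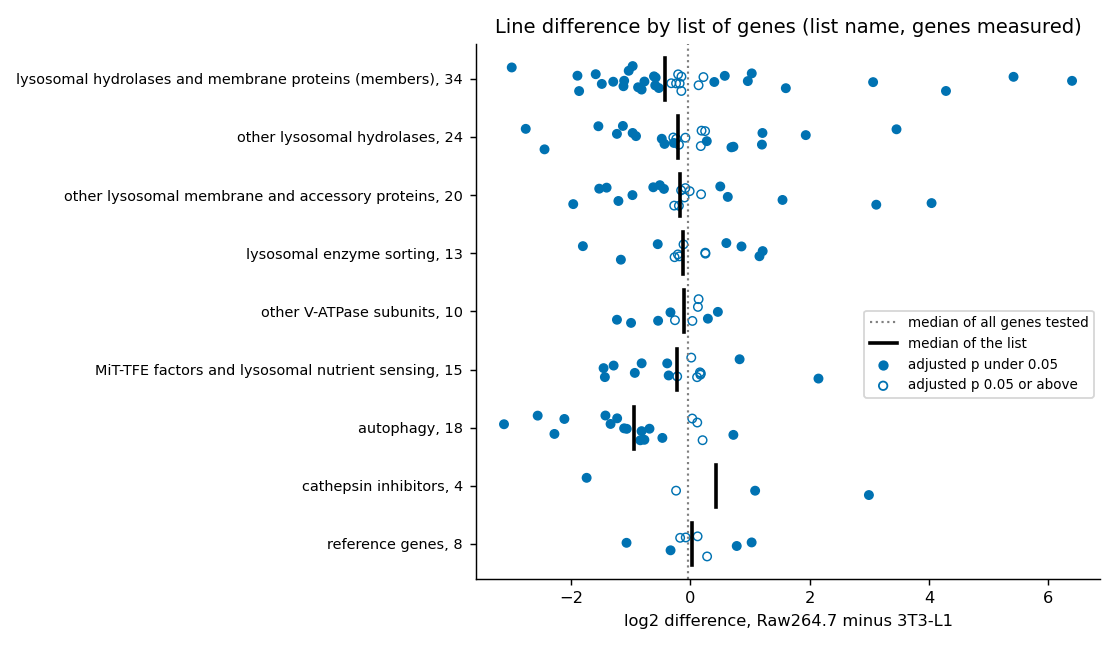
Log2 difference between the cell lines (Raw264.7 minus 3T3-L1) for each measured gene of the module and of 8 further lists, with the number of genes measured after the list's name; filled points had a limma adjusted p under 0.05, bars mark the median of a list and the dotted line the median of all genes (-0.04). The autophagy list has the lowest median (-0.96), and the lysosomal module has the genes farthest to the macrophage side.

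The second comparison set each treated array against the untreated array of its own line, to ask whether the hormones changed the lysosomal genes. Few did by 2-fold in 3T3-L1 and none in Raw264.7. In 3T3-L1, 0 of 39 genes changed 2-fold on the array labelled cortisol (of all genes, 0.416% were higher and 1.23% lower), 1 of 39 on that labelled serotonin (0.515% higher and 0.728% lower) and 2 of 38 on that labelled cortisol-serotonin (0.784% higher and 0.642% lower). In Raw264.7 there were 0 of 43, 0 of 42 and 0 of 41, where 0.0377% of all genes were higher and 0.0453% lower on the array labelled cortisol, 0.638% and 0.276% on that labelled serotonin, and 0.180% and 0.0749% on that labelled cortisol-serotonin. The 3 comparisons of a line share its untreated array, and with 1 array per condition the differences have no replicate check. The errors given are those of the scanner software's error model for the ratios and cover the spot, not the culture.

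In 3T3-L1 the lysosomal genes lay slightly above the bulk of genes on all 3 treated arrays. The median log2 difference was 0.15 on the array labelled cortisol (27 of 39 genes higher), 0.13 on that labelled serotonin (26 of 39) and 0.20 on that labelled cortisol-serotonin (29 of 38), while the median of all genes was 0.01, 0.01 and 0.02 and the share of all genes that were higher was 50.65%, 51% and 53.18%. Single errors were 0.21 or more. In Raw264.7 the medians were -0.01 (18 of 43 genes higher), -0.05 (16 of 42) and -0.11 (10 of 41), against 0.02, -0.04 and 0.00 over all genes, of which 56.61%, 41.91% and 49.18% were higher. On the macrophage array labelled cortisol-serotonin 24.4% of the lysosomal genes were thus higher. Median centring left the lysosomal genes above all genes in 3T3-L1, by 0.30, 0.34 and 0.40, but it moved the median of all genes there to 0.59, 1.07 and 0.99, so the number of 2-fold changes in 3T3-L1 depends on the scaling.

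**Figure D4:**
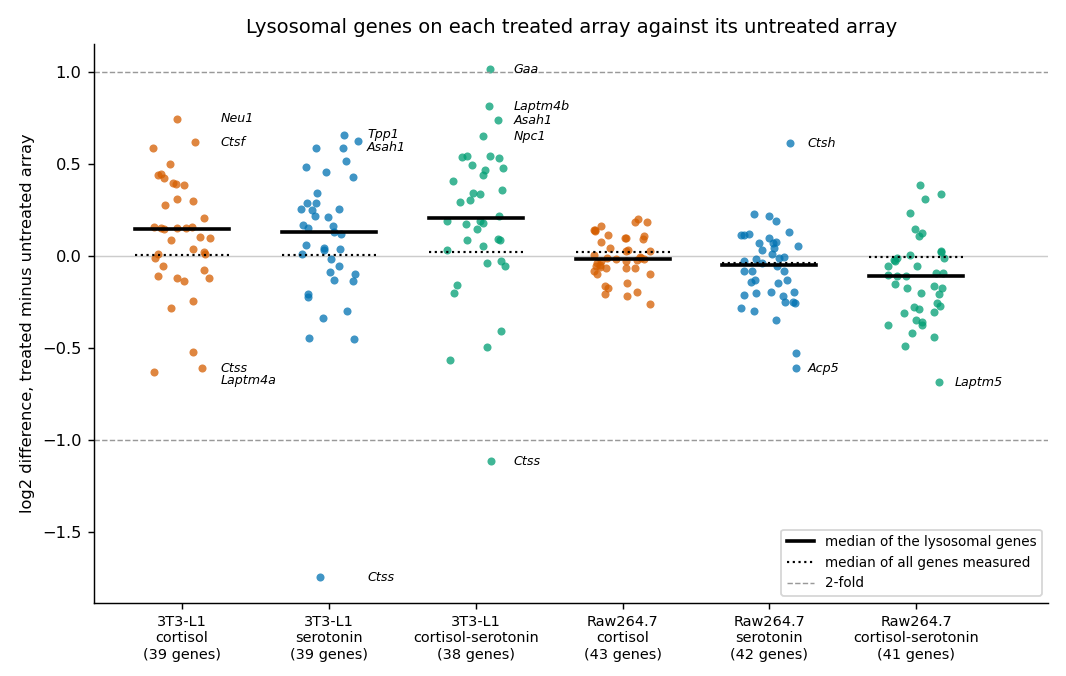
Log2 difference of each treated array from the untreated array of its line, 1 point per lysosomal gene measured on both arrays, named where the difference is 0.6 or more in size; thick bars are medians of the lysosomal genes, dotted bars medians of all genes and dashed lines mark 2-fold. Ctss lies past the 2-fold line on the arrays of 3T3-L1 labelled serotonin and cortisol-serotonin, and Gaa reaches it on the latter.

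Ctss was the lysosomal gene with the largest difference. In 3T3-L1 it lay below the untreated array by log2 values of -0.61 (error 0.95) on the array labelled cortisol, -1.75 (error 1.08) on that labelled serotonin and -1.12 (error 1.05) on that labelled cortisol-serotonin, from the low signals given above. In Raw264.7 the same gene was at -0.01, -0.53 and -0.37, with errors of 0.29. Of the 9 genes called higher in Raw264.7, Ctss included, 6 were lower than untreated in 3T3-L1 on the array labelled cortisol, 5 on that labelled serotonin and 3 on that labelled cortisol-serotonin. Over its probes Laptm5 was at -0.11, -0.45 and -0.41 and Acp5 at -0.14, -0.45 and -0.57 on the arrays labelled cortisol, serotonin and cortisol-serotonin, with errors of 0.43 to 0.49. Gusb was at 0.44, -0.13 and 0.03, and Neu1 went the other way, at 0.75, 0.52 and 0.49. Lgmn, Glb1, Grn and Atp6v1h lay between -0.28 (Atp6v1h, labelled cortisol) and 0.44 (Atp6v1h, labelled cortisol-serotonin).

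Macrophage markers moved on the same arrays. Of the 20 listed, 13 were measured on the 3T3-L1 arrays labelled serotonin and untreated, and 13 of the 13 were lower on the former (median -0.38). Lcp1 (-1.02, error 0.57) and Fcer1g (-0.87, error 0.78) led, and beside them only Csf1r (-0.36, error 0.32) differed by more than its error. On the array labelled cortisol-serotonin 12 of 13 were lower (median -0.22), and on that labelled cortisol 8 of 15 (median -0.07). Normalised Cy5 signals were also summed over 26 unmarked probes of the 20 listed markers, those below background included. The sums in 3T3-L1 were 16172 untreated, 17935 labelled cortisol, 14978 labelled serotonin and 14527 labelled cortisol-serotonin, against 288981 to 318089 in Raw264.7. Adgre1, Cybb, Fcgr1, Fcgr2b and Spi1 were not above background on the untreated 3T3-L1 array, where the other 15 markers were. The part of macrophage RNA in the differences of Ctss, Laptm5 and Acp5 in 3T3-L1 was not tested, and fewer cells of a type and less RNA per cell cannot be told apart in such samples.

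**Figure D5:**
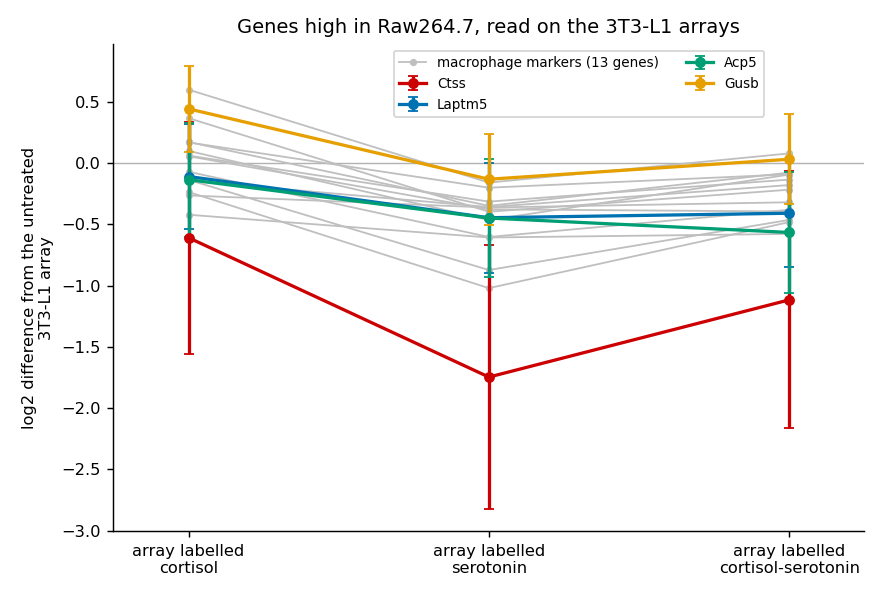
Log2 difference from the untreated array of 3T3-L1 on its 3 treated arrays, for 4 lysosomal genes that are high in Raw264.7 (coloured, with the error of the scanner software) and for the 13 macrophage markers measured on all of these arrays (grey). All grey lines are below 0 on the array labelled serotonin, and Ctss (-1.75) is lower than every marker there.

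Other differences in 3T3-L1 were below 2-fold, except for Gaa. Gaa was 1.01 higher (error 0.37) on the array labelled cortisol-serotonin from its dim probe alone, which was 0.05 and 0.48 higher on those labelled cortisol and serotonin. With outlier-marked spots kept, its mean over both probes was 0.57 higher on the array labelled cortisol-serotonin. On the array labelled cortisol the highest were Neu1 (0.75), Ctsf (0.62) and Tpp1 (0.59), and the lowest beside Ctss were Laptm4a (-0.63) and Lamp2 (-0.52). On that labelled serotonin they were Tpp1 (0.66), Asah1 (0.62) and Npc1 (0.59), and on that labelled cortisol-serotonin, after Gaa, Laptm4b (0.81) and Asah1 (0.74), while Lipa was at -0.49. Asah1 itself had log2 ratios of -1.13 untreated, -1.25 labelled cortisol, -0.50 labelled serotonin and -0.39 labelled cortisol-serotonin in 3T3-L1, and its 4 ratios in Raw264.7 lay between -1.75 and -1.48. Lamp2 and Laptm4a stood low on the array labelled cortisol only, where the errors were 0.21 and 0.29.

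In Raw264.7 the differences on the array labelled cortisol were between -0.26 (Acp5, error 0.21) and 0.20 (Manba, error 0.35), so that the largest differed little from their errors. On the array labelled serotonin Ctsh was 0.61 higher (error 0.32), and Acp5 (-0.61, error 0.21), Ctss (-0.53, error 0.29) and Lgmn (-0.35, error 0.30) were the lowest. Fibroblast markers stood higher on that array too. The median log2 ratio of the 11 measured was -4.82 there and -6.47 to -6.01 on the other macrophage arrays. Normalised Cy5 signals summed over 19 unmarked probes of the 20 listed markers, those below background included, were 6119 against 4516 to 5356. Ctsh is higher in 3T3-L1, and the part of fibroblast RNA in its value was not tested. On the array labelled cortisol-serotonin Laptm5 (-0.69, error 0.24), Naglu (-0.49, error 0.30) and Atp6v0d2 (-0.44, error 0.35) were the lowest, and Neu1 (0.39, error 0.30), from the weak spot named above, the highest. On that array 13 of 19 macrophage markers were lower (median -0.26) and 9 of 11 fibroblast markers higher (median 0.38), and on that labelled serotonin 13 of 19 were lower (median -0.10) and 12 of 13 higher (median 0.64). Their part in the values of Laptm5, Acp5 and Ctss in Raw264.7 was not tested.

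The third comparison used the 4 treatments of a line together, as an effect of each hormone over the arrays with and without its label. At an adjusted p under 0.05 (limma, 10995 genes), 0 of 34 lysosomal genes passed for cortisol or serotonin in either line or for the difference of these effects between the lines. Among all genes, 12 (0.109%) passed for serotonin in 3T3-L1 and none (0%) for the other 3 effects and both differences. At an unadjusted p under 0.05, 10 of 34 lysosomal genes were past the threshold for serotonin in 3T3-L1 (13.2% of all genes). Of these, 8 had positive effects, namely Asah1, Lamp2, Laptm4a, Laptm4b, Npc1, Atp6v1a, Atp6v1b2 and Atp6v1h, and Ctss and Laptm5 had negative ones. The array labelled serotonin was above untreated by only 0.15 for Lamp2, 0.17 for Laptm4a and 0.21 for Atp6v1h (errors 0.21 to 0.29). For the other positive genes it was above by 0.43 to 0.62. The effects of Lamp2, Laptm4a and Atp6v1h also take in their low values labelled cortisol (-0.52, -0.63 and -0.28 from untreated), since no interaction was fitted. With the arrays of 3T3-L1 alone in the fit, 1 lysosomal gene (Ctss) passed after adjustment, as did 1.46% of all genes.

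The largest serotonin effects in 3T3-L1 were those of Ctss (log2 -1.13 ± 0.27 SE, limma adjusted p = 0.181) and Asah1 (0.74 ± 0.15 SE, limma adjusted p = 0.143). Npc1 followed with 0.52 ± 0.14 SE (limma adjusted p = 0.211) and Laptm4b with 0.51 ± 0.15 SE (limma adjusted p = 0.251). The pump subunits Atp6v1a and Atp6v1b2 had effects of 0.45 and 0.37 in 3T3-L1 and of -0.30 and -0.25 in Raw264.7. That difference between the lines was -0.75 ± 0.19 SE for Atp6v1a (limma adjusted p = 0.492) and -0.62 ± 0.20 SE for Atp6v1b2 (limma adjusted p = 0.599), so it did not pass. At an unadjusted p under 0.05 there were 0 lysosomal genes for cortisol in 3T3-L1 (2.79% of all genes), 1 for cortisol in Raw264.7 (Laptm5, 2.58%), 1 for serotonin in Raw264.7 (Ctsh, 3.32%), 3 for the difference of the cortisol effects (2.54%) and 5 for that of the serotonin effects (7.49%).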

How the data were processed

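Agilent 2-colour arrays were scanned by the authors with Agilent Feature Extraction, version 10.5.1.1 in the submitters' processing notes. The scanner files deposited by the authors hold median signal and background intensity values for both dyes, without normalization between arrays, and a processed log10 ratio with its error. The deposited series matrix holds the same log10 ratio (within 0.005 over 43020 spots). Mean signals were not in the files used here, so median signals were used.

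Signals were background-corrected (normexp, offset 50) and loess-normalised within arrays in limma 3.58.1 (R 4.3.3). Control spots had weight 0 and outlier-marked spots were left out. Accessions were matched to RefSeq for names only (27508 of 39429 probes, 69.8%). For each gene, values were averaged over the probes with both dyes well above background on the arrays compared. The lowest correlation of log ratios between 2 arrays was -0.234. The line model (cell line and treatment) had 3 residual degrees of freedom and the hormone model (cortisol and serotonin within each line, no interaction) 2. No condition had a second array, which limits the precision, and p-values measure only the spread between these arrays.

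The module and all gene lists were chosen with earlier results of these data known. The rule for values given per array took the 6 largest line differences in either direction, bounded genes, 2-fold changes and the 3 highest and 3 lowest of each treated comparison. Of the other lists, at most 4 genes are named. Tested on simulated data with 200 of 10995 genes changed, the line model recovered 0% at a log2 change of 0.5, 80.5% at 1 and 99.5% at 2. The serotonin effect in 3T3-L1 was recovered in 0%, 0% and 89%. In the data 74.3% of genes were called between the lines, far more than were changed in the simulation, and the adjustment is then less strict. The simulated recovery therefore does not give the power of the line test, which Atp6v1h passed at a log2 difference of 0.40. Alternatives covered the normalization, background correction, channel, dim-probe filter, probe choice, series matrix, single arrays left out and the outlier marks.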

Additional observations from a re-analysis of the deposited data

Results flagged for a closer look

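Over the 34 genes and both lines, 68 groups of 4 arrays were examined for 1 array far from the other 3, and 6 were past Dixon's critical value, where chance gives about 1 in 20. Naglu appeared in both lines. Its log2 ratio was 0.60 on the untreated array of 3T3-L1, where the treated arrays were at 1.03 to 1.06, and -0.96 on the macrophage array labelled cortisol-serotonin, where the others were at -0.47 to -0.38. Under the label cortisol-serotonin in 3T3-L1, Atp6v0d1 stood at 0.55 (others 0.20 to 0.23) and Lgmn at -1.12 (others -1.28 to -1.26). In Raw264.7, Gla stood at 0.45 under the label cortisol-serotonin (others 0.21 to 0.22), and Acp2 at -0.58 on that labelled cortisol (others -0.78 to -0.77). From untreated, Lgmn differed by 0.15 (error 0.32) and Gla by 0.23 (error 0.29) on these arrays, within the error of the ratio. Atp6v0d1 differed by 0.36 (error 0.29) and Naglu in Raw264.7 by -0.49 (error 0.30). In 3T3-L1 the treated arrays were 0.43 to 0.47 above untreated for Naglu (errors 0.31). The 4 arrays of a line carried different treatments, so treatment and array cannot be told apart for these values.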

How the results depend on the processing

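All 26 line differences called kept their direction under every alternative run, except Atp6v1h (-0.18 from Cy5 alone). Uncalled ones reversed with median centring (Ctsd 0.0159, Scarb2 0.0427, Npc1 0.0258, Atp6v1b2 0.0799), from Cy5 alone (Npc1 0.21) and with single arrays left out (Ctsd between -0.48 and 0.022, the latter without either array labelled cortisol-serotonin). At -0.48, without the untreated array of 3T3-L1, the other probe of Ctsd had entered the mean. From Cy5 alone Ctsf, Ctsa, Man2b1, Neu1 and Mcoln1 lost their calls. With median centring 4990 genes were called (8169 by the main setting), 10 lysosomal genes were higher in 3T3-L1 (17.8% of all genes), 23 passed for serotonin in 3T3-L1 (41.2%), and 14, 31 and 29 were 2-fold changed in 3T3-L1 on the arrays labelled cortisol, serotonin and cortisol-serotonin (18.4%, 55.6% and 49.5%). The number 2-fold changed on the 3T3-L1 array labelled cortisol-serotonin was 1 with Feature Extraction's processed signals, the series matrix or outlier-marked spots kept, and 0 without background correction. From Cy5 alone it was 0 on the 3T3-L1 arrays labelled serotonin and cortisol-serotonin, 4 on the macrophage array labelled serotonin and 2 on that labelled cortisol-serotonin, where Neu1 reversed from 0.39 to -4.96. With the brightest probe of a gene it was 1 (Gaa) on the macrophage array labelled cortisol-serotonin. At 1.5-fold it was 5, 5 and 5 in 3T3-L1 and 2 and 1 on the macrophage arrays labelled serotonin and cortisol-serotonin. The share of all genes past a fold threshold was counted only at 2-fold, in the main setting and with median centring. The other counts of fold changes given here thus have no share beside them and cannot be set against all genes. The difference of Ctss on the 3T3-L1 array labelled serotonin was between -2.37 (offset 0) and -0.56 (median centring), and on that labelled cortisol-serotonin between -1.68 and -0.02. In Raw264.7 from Cy5 alone the lysosomal genes lay 0.01 above all genes on the arrays labelled serotonin and cortisol-serotonin. The cause of these changes was not tested.

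Without single arrays 7582 to 7901 genes were called, 8 to 11 lysosomal genes were higher in Raw264.7 and 17 to 19 in 3T3-L1, and 0 to 2 passed for serotonin in 3T3-L1: Ctss without any one of the macrophage arrays, and also Asah1 without the macrophage array labelled serotonin or cortisol-serotonin, where 1.15% to 2.23% of all genes passed. For the other hormone effects and differences it was 0 to 0. Probes were chosen anew on the arrays that remained, so the genes measured and the probes averaged could differ. With the arrays of 3T3-L1 alone in the fit, 1 gene (Ctss) passed for serotonin (1.46% of all genes). Without any 1 macrophage array the hormone model has no residual left in Raw264.7. Those fits thus rest on the spread in 3T3-L1 alone, like the fit of that line, and are not separate checks. The line model pairs the arrays by treatment, and without that term 9 lysosomal genes were higher in Raw264.7 and 17 in 3T3-L1, with no call of a lysosomal gene changed. Shares of all genes by direction were not counted without single arrays or without that term. The labels number no replicates. With outlier-marked spots kept Ctsd gained a call and Ctsa lost its call. Low signals limit Ctss, Laptm5, Ctsc, Ctso, Tfeb and Atp6v0d2.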
